A study of Drosophila melanogaster with 2 samples.

Results

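The peaks described here, 1684 at promoters and 1137 elsewhere, stood directly below the reproducible peaks of a chromatin immunoprecipitation sequencing (ChIP-seq) experiment on the Drosophila melanogaster protein CG31365. They were taken from a list of 30000 regions called on 2 replicate libraries together. Of these regions, 26661 shared no base with the peaks that passed the irreproducible discovery rate (IDR) step. The just-below peaks were selected on the deposited signal value as the highest of these, in the same number as the IDR peaks, which is 10.6% of them and 9.40% of the whole list. They were set against the IDR peaks and against the other 23840 regions that overlapped no IDR peak, called remaining low-ranked regions. A further 518 regions overlapped an IDR peak without being one and were left out.

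The libraries came from whole embryos aged 0 to 24 h, males and females together, of a transgenic line that stably carries CG31365 with GFP fused to its C terminus. There was 1 group of 2 biological replicates, numbered 2 and 3, and no untagged or other-stage group. Whole embryos over this span mix every tissue and stage, the labels describe 1 transgenic line, and whether the untagged gene remained is not given there. A free-text label calls both libraries input controls, whereas the title, assay, antibody and target labels describe a ChIP, and the submitters' listing derives the peaks from each library's alignments plus a separate control file. Read depth was unknown. Peaks and genes are not replicates, so the intervals below cover counting over peaks or genes and not the error between embryos.

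An IDR step orders the peaks of replicate libraries by strength and sets a limit from how well that order is shared. The regions below its limit can hold weaker binding as well as background. Promoters of broadly expressed Drosophila genes often carry the DNA replication-related element (DRE), bound by Dref and BEAF-32, or Motif 1, bound by M1BP. Promoters of developmentally regulated genes more often carry a TATA box or GAGA repeats, which the factor Trl binds, and CTCF marks many domain borders.

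Sequences are shown for the words that are compared between the peak sets below, each from the highest just-below peaks that hold the word close to the summit and outside untranslated regions. They are RefSeq sequence of dm6, given on the strand that carries the word, with the word in capitals. The first 4 hold AAGCAGT, a word known from earlier work on these data to be frequent in the IDR peaks, within 20 bp of the summit. The next 6 hold a DRE, a Motif 1 core or the E-box core of Motif 5 within 50 bp of the summit of a promoter peak.
para intron, chrX:16484703-16484731, minus strand: agcgattcggcAAGCAGTgcacataacgg
CG42828, chr3R:23374405-23374433, plus strand: gagggcagaacAAGCAGTggaaagcttct
CG44422 intron, chrX:11233468-11233496, minus strand: aaatcaacttcAAGCAGTgtgcgcaagca
MtnD, chr3R:20534883-20534911, plus strand: tttggtgcgcaAAGCAGTgaaagctctat
stck, chr3R:8356940-8356969, plus strand: aacagaagagcTATCGATAggcaggttgta
Ptp10D, chrX:11621880-11621909, plus strand: gcgcaggttccTATCGATAccatcgctggg
glec, chr3R:21856295-21856324, minus strand: gggagcaactgGTCACACTgcgccatataa
CycB3, chr3R:24870853-24870882, minus strand: gccgcggtacgGTCACACTgcaggccgcat
lncRNA:CR45640, chr3R:16208792-16208819, plus strand: aaccaacgaacCAGCTGaatgaaagcgg
ND-51, chr2L:6062785-6062812, plus strand: gagcacgtaatCAGCTGtaattaataaa

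These copies lay at genes of different kinds. The intron of para, a voltage-gated sodium channel gene, held a just-below peak of pooled rank 3008 with 2 copies of AAGCAGT, the nearer centred 4 bp from the summit. MtnD, a metallothionein gene, had its summit at -73 bp from the start site and the word 8 bp away. The DRE at stck, which encodes an integrin-adhesion adaptor, was centred 30 bp from a summit at -54 bp. CycB3 encodes a mitotic cyclin and ND-51 a subunit of respiratory complex I.

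Signal was the quantity that chose the just-below peaks, so it is given as a description without a test. It ran from 80.8 to 124 with a median of 97.0 in just-below peaks, from 124 to 11639 with a median of 189.6 in IDR peaks, and up to 80.8 in the remaining low-ranked regions. The just-below peaks held pooled ranks 2822 to 5746. The highest just-below peak, in an intron of the homeobox gene Lim1, had a signal of 124.12, and the lowest IDR peak, at CG17834, had 124.13. At the lower end, the last peaks taken were at Zip71B (80.79), cindr (80.77) and LanA (80.77), and the first left out were near Ser (80.77), at Ca-beta (80.76) and in Antp (80.76). Neither limit therefore fell at a gap in the signal. In 427 just-below peaks (15.1%) the deposited −log10 q-value was at the list's highest value of 3.81, as it was in every IDR peak.

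**Figure D1:**
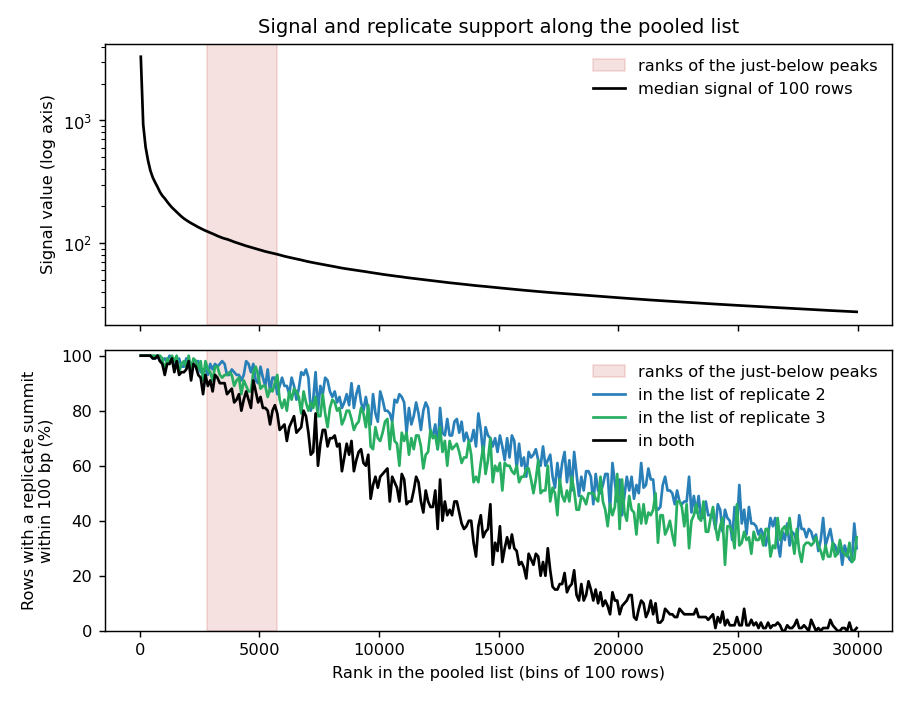
Median deposited signal (upper panel, log axis) and the percent of regions with a summit within 100 bp in the replicate lists (lower panel) in bins of 100 pooled ranks (horizontal axis), with the just-below ranks shaded. Signal passes through 124 at the upper limit and 80.8 at the lower limit of the just-below ranks with no step, and the share found in both replicates falls along the ranks.

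Most just-below peaks had a counterpart in each replicate's own list of 30000, which was made from the same reads. A summit lay within 100 bp in the list of replicate 2 for 2662 (94.4%) and in that of replicate 3 for 2574 (91.2%). Both lists held 2423 just-below peaks (85.9%, 95% Wilson interval 84.6 to 87.1), 2711 IDR peaks (96.1%) and 26.6% of the remaining low-ranked regions. Only 8 just-below peaks were in neither list. In 4 equal bins of signal, from the highest to the lowest, the share in both lists was 91.2%, 85.5%, 86.0% and 80.9%.

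Ranks within each replicate's own list are given as a description. Among the highest regions of a replicate's own list, taken in the number of the IDR peaks, stood 327 just-below peaks for replicate 2 and 323 for replicate 3, but 3 for both, against 1952 IDR peaks (69.2%) for both. With 2 times as many regions, 868 just-below peaks (30.8%) and 92.8% of IDR peaks were in both. Single peaks shifted far: the peak at wts, a Hippo pathway kinase gene, had rank 28814 in replicate 2 and rank 1452 in replicate 3. The peak at Vha44, a proton pump subunit gene, had rank 1169 in replicate 2 and no counterpart in replicate 3. Both sets were cut on pooled signal from the same reads, the IDR peaks as the highest regions and the just-below peaks as the next, within a narrow range. A peak high in both replicates would thus mostly be an IDR peak. These counts therefore describe the lists and do not measure reproducibility.

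**Figure D2:**
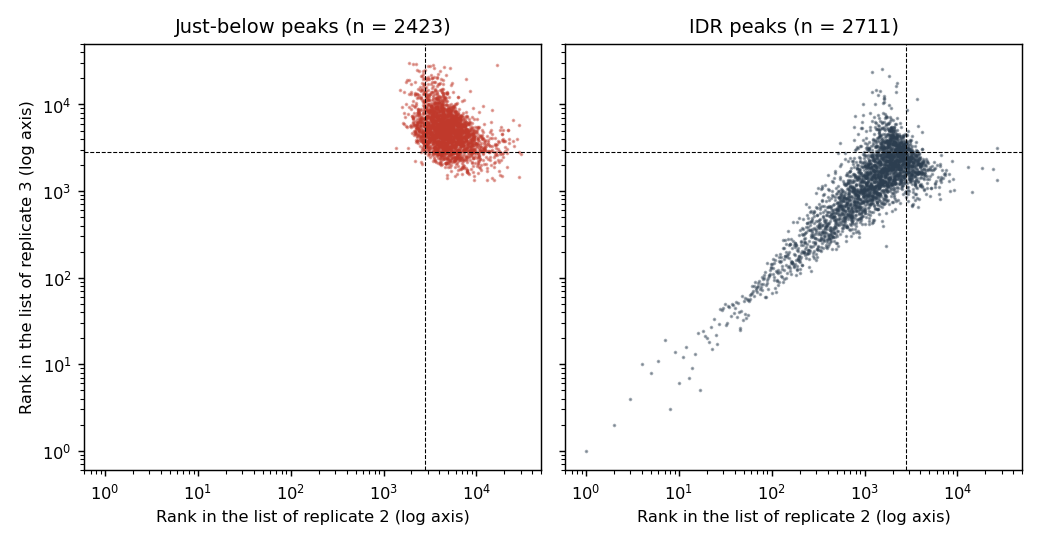
Rank of each peak in the list of replicate 2 (horizontal axis) against its rank in the list of replicate 3 (vertical axis) for just-below and IDR peaks with a summit within 100 bp in both lists; dashed lines mark the rank equal to the number of IDR peaks. Most just-below peaks lie beyond both dashed lines and 3 lie inside both, whereas 1952 of the 2711 IDR peaks plotted lie inside both. Both sets were cut on pooled signal of the same reads, so these counts follow largely from the choice.

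The promoter share of just-below peaks differed much from that of the lower ranks and little from that of IDR peaks. A peak was counted at a promoter where the summit and an annotated transcript start site were at most 1000 bp apart. Of the just-below peaks 1684 (59.7%, 57.9 to 61.5) were promoter peaks, against 1758 IDR peaks (62.3%, 60.5 to 64.1), an odds ratio of 0.896 (95% Woolf interval 0.805 to 0.997). The two-sided Fisher's exact p was 0.0463 and 0.236 after Benjamini-Hochberg adjustment over 7 annotation classes. None of the 7 classes passed an adjusted p of 0.05 (0% called), with 1 below 0.05 before adjustment; 28.1% of just-below and 25.9% of IDR summits were intronic, and 9.82% and 9.50% intergenic. Neighbouring peaks are not independent, so these tests describe the peak lists and not the variation between embryos.

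Against the remaining low-ranked regions the just-below peaks were far more often at promoters. There the promoter share was 36.4%, an odds ratio of 2.59 (2.39 to 2.80) for just-below peaks (Fisher's exact adjusted p = 1.1e-122). Of the 7 classes, 5 passed (71.4% called). Introns (28.1% against 39.0%), intergenic sequence (9.82% against 18.1%), coding exons (0.284% against 3.35%) and 3′ UTRs (1.13% against 2.02%) held a lower share of just-below peaks. Within the just-below peaks, the promoter share in the 4 bins of signal was 61.6%, 62.0%, 57.7% and 57.4%. It was 58.7% in those found in both replicate lists and 65.8% in the 398 that were not. Median GC content over 201 bp was 41.3% in just-below peaks, 39.3% in IDR peaks and 43.3% in the remaining regions, and its part in these differences was not tested.

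Just-below promoter peaks sat closer to the start site than IDR promoter peaks and less often upstream of it. Their median distance was 109 bp, against 151 bp for IDR and 248 bp for remaining promoter regions. Summits within 100 bp of a start site made up 48.0% (809 of 1684) of just-below and 37.4% of IDR promoter peaks, an odds ratio of 1.55 (1.35 to 1.77; Fisher's exact adjusted p = 6.8e-10 over 5 position measures). Upstream of the nearest start site lay 56.0% of just-below and 66.8% of IDR summits (odds ratio 0.631, 0.550 to 0.725, Fisher's exact adjusted p = 3.4e-10). A 5′ UTR held 31.9% and 22.7% of them (odds ratio 1.59, 1.37 to 1.86, Fisher's exact adjusted p = 2.3e-09). These position tests were chosen once the values were known. The direction of the promoter share depended on the window: at 200 bp it was 40.3% in just-below and 37.1% in IDR peaks (odds ratio 1.15, Fisher's exact p = 0.0139), the opposite direction to the 1000 bp window. At 2000 bp it was 70.9% and 74.5%, and this difference passed over the 7 classes (odds ratio 0.836, Fisher's exact adjusted p = 0.0216).

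**Figure D3:**
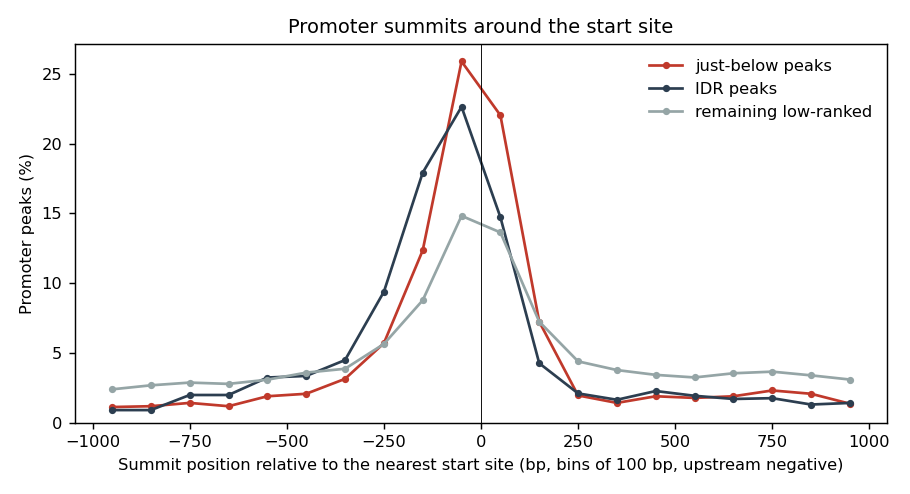
Percent of promoter peaks (vertical axis) by distance of the summit from the nearest start site in bins of 100 bp (horizontal axis, negative upstream) for just-below, IDR and remaining low-ranked regions. In just-below peaks the 100 bp before the start site hold 25.9% of promoter summits and the 100 bp after it 22.0%.

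Gene arrangement was less different. The nearest gene belonged to a head-to-head pair, with start sites on opposite strands within 500 bp, in 29.5% of just-below and 30.0% of IDR promoter peaks (odds ratio 0.973, 0.840 to 1.13). At least 2 genes started within 1000 bp in 37.6% and 39.3% (odds ratio 0.930, 0.811 to 1.07). Neither difference passed, and these intervals give the differences that the counts allow. Both shares were higher in just-below than in remaining promoter regions (22.1% and 27.8%; Fisher's exact adjusted p = 1.8e-10 and 3.3e-15). The nearest gene was protein-coding in 1538 just-below promoter peaks (91.3%), a long or other noncoding RNA gene in 118, a tRNA gene in 22, a snoRNA gene in 5 and an snRNA gene in 1.

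Counted by gene, 2219 of 17896 annotated genes had a just-below promoter peak (12.4%) and 2311 had an IDR promoter peak (12.9%). Both kinds were found at 383 genes, 17.3% of those with a just-below and 16.6% of those with an IDR peak, and 1836 of the 15585 genes without an IDR peak had a just-below one (11.8%). Among protein-coding genes the counts were 1900 of 13945 (13.6%) with a just-below peak, 1938 (13.9%) with an IDR peak, and 1567 of the 12007 without an IDR peak (13.1%). By the rule of choice a just-below peak overlaps no IDR peak, so for most lists below the share among genes without an IDR peak is set beside that over all such genes. A summit between neighbouring genes counts for each of them, and 224 genes had 2 or more just-below promoter peaks. CG31365 itself, at chr3R:23123962-23126422, had no just-below peak, IDR peak or remaining low-ranked region at its promoter.

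The just-below promoter peaks of highest signal stood at genes of many functions. The first was at wdp, a leucine-rich-repeat membrane protein gene, with a pooled signal of 124.10, rank 3513 in replicate 2 and rank 2844 in replicate 3. Next came SerRS, which charges serine tRNA, with ranks 2728 and 4338, and bnl, the fibroblast growth factor of the tracheal system, with ranks 2420 and 4470. These 3 summits lay at -33, 33 and -56 bp from the start site. Sar1, a GTPase of vesicle export, had rank 4939 in replicate 2 and 1912 in replicate 3, and usp, the partner of the ecdysone receptor, had 2436 and 7819. The order of the replicates thus differed from gene to gene.

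The rest of the 20 highest included the transporter genes Mrp5 and ZnT63C, the phosphodiesterase gene Pde11, the nucleotidase gene Nt5c and catalase (Cat). They also included wech, needed for muscle attachment, koi, a SUN-domain gene of the nuclear envelope, Df31, a chromatin decondensation factor gene, and Gli, a cell-junction gene. The other members were lute, lncRNA:CR45640, CG30022, CG32301, CG31909 and CG6415. Each of the 20 had a counterpart in both replicate lists. The 5 highest just-below peaks over 1000 bp from a start site lay in introns of Lim1, plh, Bicra and hth, and in an intergenic stretch near lncRNA:CR44199. Those at Bicra and lncRNA:CR44199 had no counterpart in replicate 2, at ranks 2751 and 1740 in replicate 3.

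Genes of the translation machinery took different places in the ranking. Of 86 cytoplasmic ribosomal protein genes 8 had a just-below and 72 an IDR promoter peak, 5 of them both. Without an IDR peak stood 14, of which 3 had a just-below peak (21.4%, with an interval of 7.57 to 47.6 that includes the 13.1% of protein-coding genes). They were RpL38 (signal 108), RpS5b (87.7) and RpS2 (86.1). The count of 8 was 4 with a 200 bp window, 16 with 2 times as many just-below peaks and 13 without replicate 3. RpL38 had rank 3765 in replicate 2 and no counterpart in replicate 3, and RpS2 had ranks 9151 and 2799. At 4 of the genes with both kinds of peak the just-below summit lay far from the start site, at -898 bp at RpS5a, 894 bp at RpL34b, -709 bp at RpL32 and -666 bp at RpS12. At RpS5a, RpL32 and RpS12 that summit was in the 5′ UTR of the neighbouring gene, Chchd2, CG7943 and Adk2.

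Mitochondrial ribosomal protein genes had just-below peaks about as often as IDR peaks, as did protein-coding genes as a whole (13.6% and 13.9%). Of 75 genes 14 had a just-below peak and 12 an IDR peak, with none in both. Thus 14 of the 63 without an IDR peak had one (22.2%, interval 13.7 to 33.9, beside 13.1% of protein-coding genes). In the lists of both replicates were 13 of these 14. mRpL51 had a signal of 121 with ranks 7356 and 2267 in replicates 2 and 3, and mRpL53 had 118 with ranks 2529 and 2855. The peak at mRpL16 was also the peak at trr, a Trithorax-related histone methyltransferase gene.

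Among 44 translation initiation factor genes 2 had a just-below and 11 an IDR peak. The 2 were the helicase gene eIF4A (signal 119.8) and eIF4H1 (99.0), of 33 without an IDR peak (6.06%, beside 13.1%). That eIF4A summit lay at -710 bp from the start site. Of 20 aminoacyl-tRNA synthetase genes 4 and 5 had one, with AspRS and AlaRS beside SerRS among the 3 of 15 without an IDR peak. Of 290 nuclear tRNA genes 53 had a just-below and 80 an IDR peak, 20 of them both, and 33 of the 210 without an IDR peak had one (15.7%, beside 11.8% of all genes). tRNA genes lie in clusters, and these 33 genes rested on 18 peaks. The highest, with a signal of 117, lay between tRNA:Asp-GTC-1-4 and tRNA:Asp-GTC-1-5 and had no counterpart in replicate 3. Of 269 snoRNA genes 23 had a just-below peak (14 peaks) and 45 an IDR peak, and 21 of the 224 without an IDR peak had one (9.38%, beside 11.8%). Of 32 snRNA genes 1 (snRNA:U1:95Ca, signal 115) had a just-below and 4 an IDR peak, and the 1 was among 28 without an IDR peak (3.57%).

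**Figure D4:**
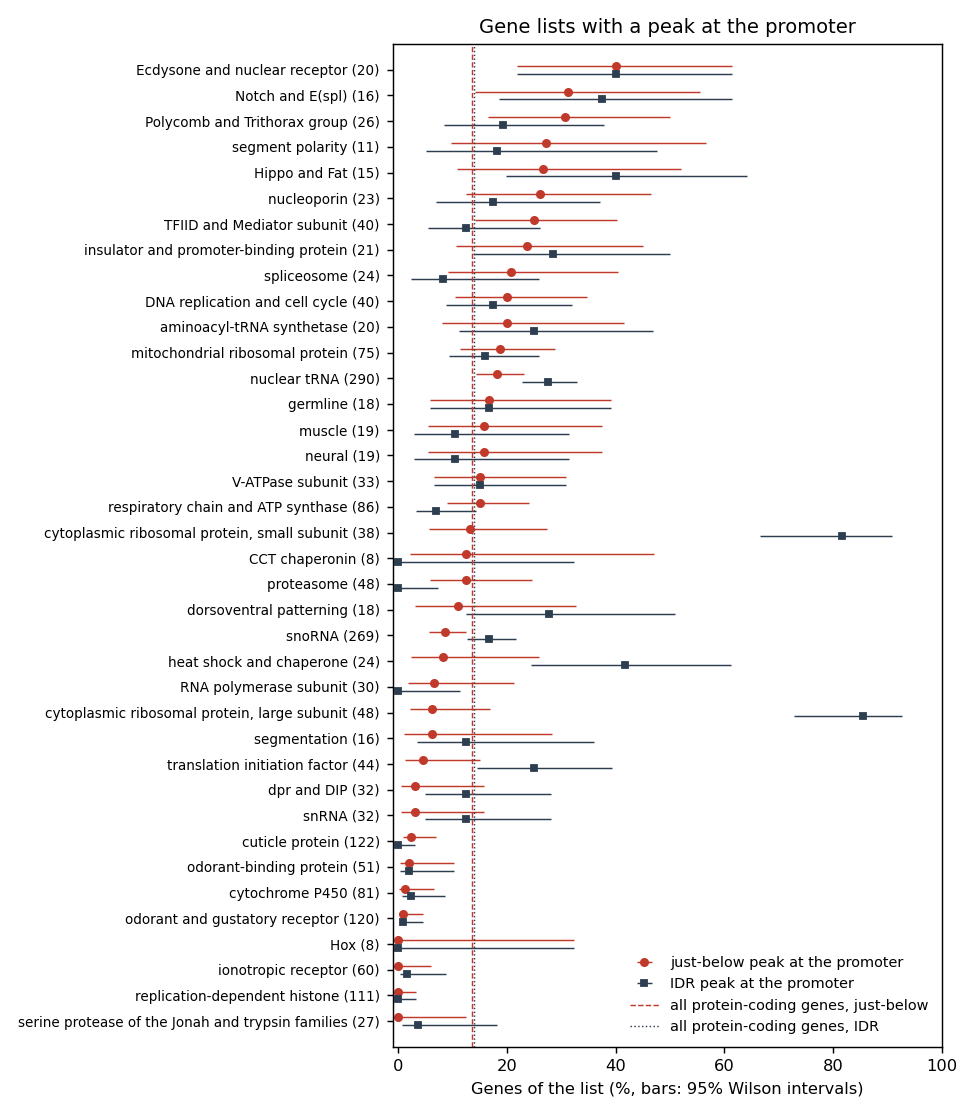
Percent of the genes of each list (rows) with a just-below promoter peak and with an IDR promoter peak (horizontal axis, percent of genes); bars are 95% Wilson intervals, numbers in brackets are genes per list, and lines mark the shares over all protein-coding genes. Large- and small-subunit cytoplasmic ribosomal protein genes stand at 6.25% and 13.2% for just-below peaks and at 85.4% and 81.6% for IDR peaks, and every other list has both shares at 41.7% or below.

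Of other housekeeping complexes, the proteasome and the respiratory chain had just-below shares near that of protein-coding genes. Their IDR shares were below the 13.9% of protein-coding genes. The proteasome, the cell's main protein-degrading complex, had 6 of 48 genes with a just-below peak (12.5%, near the background of 13.1%) and 0 with an IDR peak (interval 0 to 7.41%). They were Rpn5 (signal 106), Rpt6 (94.9), Rpn9 (91.0), Rpn8 (86.1), Rpn13 (81.1) and Rpn6 (80.9). The summit counted for Rpn8 lay at -807 bp, in a 5′ UTR within Rpn8 and Slik. That for Rpn13 lay at -490 bp, in an intron of CtsL1. In replicates 2 and 3 the peak at Rpn5 had ranks 3923 and 3511, whereas Rpn9 had 18270 and 2268, Rpn8 14783 and 3316, and Rpn13 20376 and 3249. These 3 stood far higher in replicate 3, and Rpn6 had no counterpart in replicate 2. Of 86 respiratory chain and ATP synthase genes 13 had a just-below and 6 an IDR peak (6.98%, with an interval of 3.24 to 14.4 that includes 13.9). Of the 80 without an IDR peak 12 had a just-below one (15%, with an interval of 8.79 to 24.4 that includes 13.1). ND-51 had a signal of 123.2, COX5A 122, ATPsynE 111 and COX7B 106. The summit counted for ATPsynE lay 943 bp downstream of its start site, in intergenic sequence. All 12 were in both replicate lists.

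Lists of transcription, RNA processing and nuclear transport differed among themselves. Of 40 TFIID and Mediator subunit genes, which connect activators to RNA polymerase II, 10 had a just-below and 5 an IDR peak, and the 10 were among the 35 without an IDR peak (28.6%, beside 13.1%). MED7 had a signal of 119, Taf8 111, MED19 106 and Taf1 106. The summit counted for Taf8 lay at -720 bp, in the 5′ UTR of Mvb12. RNA polymerase subunits had 2 of 30, Polr2H (signal 122.8) and Polr3E (122.0), and no IDR peak (6.67%, beside 13.1%). Splicing factor genes had 5 of the 22 without an IDR peak (22.7%, with an interval of 10.1 to 43.4 that includes 13.1), with Sf3b3, Sf3a1, Sf3b1 and Prp3 the highest. The summit counted for Prp3 lay at -894 bp, in a 5′ UTR within Mi-2 and Su(Tpl). The nucleoporin list, which also holds the exportin gene emb, had 6 of 19 (31.6%), 4 of them in both replicate lists. Nup98-96 had ranks 1725 and 18028 in replicates 2 and 3, and Nup93-2 had no counterpart in replicate 2.

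DNA replication and cell cycle genes had 7 of the 33 without an IDR peak (21.2%, with an interval of 10.7 to 37.8 that includes 13.1). RnrS, Prim1, CycB3 and CycA were the highest. V-ATPase genes had 5 of 28 (17.9%, interval 7.88 to 35.6), and of the CCT chaperonin 1 of 8, CCT5. The summit counted for CCT5 lay at -588 bp, in the 5′ UTR of Oda. Of 24 heat shock and chaperone genes 2 had a just-below peak, Hsp22 (signal 115) and Hsc70-3 (101 and 82.4), both had an IDR peak too, and 0 of the 14 others had a just-below one. The IDR count of that list was 10.

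Of 20 ecdysone and nuclear receptor genes 8 had a just-below and 8 an IDR peak, 3 of them both. Of the 12 without an IDR peak 5 had a just-below one (41.7%, beside 13.1%): usp (124), Hr78 (112), Hr4 (105), ftz-f1 (100.4) and Hr38. All 5 were in both replicate lists. EcR, the ecdysone receptor gene, had 4 just-below promoter peaks beside an IDR peak, and usp, Hr38 and Hr78 had 2 each. Of 26 Polycomb and Trithorax genes, which keep genes silent or active, 8 had a just-below and 5 an IDR peak. Of the 21 without an IDR peak 7 had a just-below one (33.3%, beside 13.1%), with E(z) at 122, mor at 115, trr at 114 and osa at 113. The summit counted for mor lay at -790 bp, in the 5′ UTR of Hel89B, and trr and osa lacked a counterpart in replicate 2.

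Of 21 insulator and promoter-binding protein genes 5 had a just-below and 6 an IDR peak, with none in both. The 5 were among the 15 without an IDR peak (33.3%, beside 13.1% of protein-coding genes). They were pzg, BEAF-32, pita, M1BP and zld, the activator of early zygotic transcription, with signals from 118 at pzg downward. The peak at pzg had rank 1639 in replicate 2 and no counterpart in replicate 3. Of 15 Hippo and Fat growth-control genes 4 had a just-below and 6 an IDR peak. Of the 9 without an IDR peak 3 had a just-below one: the coactivator gene yki (119), kibra (108) and wts (103). The yki peak lay at -311 bp, in the 5′ UTR of Gpat4, and had no counterpart in replicate 2. In the Notch list of 16 genes 5 had a just-below and 6 an IDR peak. Of the 10 without an IDR peak 3 had a just-below one, the E(spl) repressor genes E(spl)m3-HLH, E(spl)mbeta-HLH and E(spl)mgamma-HLH. The Notch coactivator gene mam had 3 just-below peaks beside an IDR peak. These lists hold 9 to 21 genes without an IDR peak, so 1 gene moves a share by several percent. The Wilson intervals of the Hippo (12.1 to 64.6) and Notch (10.8 to 60.3) shares include the 13.1% of protein-coding genes.

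Patterning and tissue lists are short, and their shares among genes without an IDR peak lay on both sides of 13.1%. None of the 8 Hox genes had a just-below or an IDR promoter peak (0%, with an interval of 0 to 32.4 that includes 13.1). Only a remaining low-ranked region stood at 7 of the 8, as at 4245 of 13945 protein-coding genes. Of 16 segmentation genes 1 had a just-below peak, hb (signal 106), of 14 without an IDR peak (7.14%), and 2 had an IDR peak. The segment polarity genes arm (108), wg (88.7) and gsb (85.5) made 3 of 9 without an IDR peak (33.3%, with an interval of 12.1 to 64.6 that includes 13.1). The dorsoventral genes sog (89.5) and rho (89.4) made 2 of 13 (15.4%). Of neural genes Fas2 (119) and pros (98.2) were 2 of 17 (11.8%), and of muscle genes sns (109), Tm1 (92.8) and Mef2 (91.5) were 3 of 17 (17.6%). The germline genes gcl, vls and tud were 3 of 15 (20%, interval 7.05 to 45.2), and dpr10 was 1 of 28 neuronal recognition genes (3.57%). The summit counted for vls lay at -791 bp, in the 5′ UTR of bwa, and that for tud at -506 bp.

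Genes of the cuticle, the senses, detoxification and digestion had shares below those of protein-coding genes for both kinds of peak (13.6% just-below and 13.9% IDR). Cuticle protein genes had a just-below peak at 3 of 122 (2.46%) and an IDR peak at 0; the 3 were Cpr73D, Cpr65Av and Lcp9. Odorant and gustatory receptor genes had 1 of 120 (Gr64a), ionotropic receptors 0 of 60, odorant-binding proteins 1 of 51 (Obp83g), cytochrome P450 genes 1 of 81 (Cyp317a1), and Jonah and trypsin proteases 0 of 27. In the same order, IDR peaks stood at 1 of 120, 1 of 60, 1 of 51, 2 of 81 and 1 of 27. The summit counted for Gr64a lay in the 5′ UTR of CG11594 and that for Cpr73D in an intron within both Cpr73D and Ogdh, an enzyme gene of the citric acid cycle. None of the 111 replication-dependent histone genes, which lie in a repeated cluster, had a just-below peak, IDR peak or remaining low-ranked region at the promoter. No test was made of any list, since the lists were chosen with earlier results known.

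AAGCAGT was far less frequent at just-below than at IDR summits. It stood within 100 bp of the summit in 100 just-below peaks (3.54%, 2.92 to 4.29), 373 IDR peaks (13.2%, 12.0 to 14.5) and 2.62% of remaining regions (2.42 to 2.83). Since the word was chosen for the IDR peaks, no test is given. The IDR share came mostly from the highest peaks: in 4 bins of IDR signal it was 33.6%, 8.65%, 4.96% and 5.67%. In the 4 bins of just-below signal it was 3.68%, 3.12%, 4.11% and 3.26%, with no trend beyond the intervals. At least 2 copies stood in 11 just-below and 159 IDR peaks. In just-below peaks the share was 3.33% at promoters and 3.87% elsewhere.

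Copies in just-below peaks were little centred on the summit. Of 113 copies 23.9% (17.0 to 32.5) were centred within 20 bp, against 47.6% of IDR copies and 21.4% of remaining copies, where an even spread over the window gives 21.0%. A C preceded the word in 38.9% of just-below copies, 52.9% of IDR copies and 28.8% of remaining copies, and a G followed it in 43.4%, 48.9% and 28.7%. The 95% interval for C was 30.5 to 48.2 in just-below and 48.9 to 56.9 in IDR copies. For G it was 34.6 to 52.6 and 44.9 to 52.9. Copies in the same peak are not independent, and these differences were not tested.

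Of 23 consensus elements searched on both strands within 100 bp of the summit, 3 differed between just-below and IDR peaks at a Fisher's exact adjusted p of 0.05 (13% called). The E-box core of Motif 5, CAGCTG, was in 12.3% of just-below and 9.82% of IDR peaks (odds ratio 1.29, 1.09 to 1.53, Fisher's exact adjusted p = 0.0454). The TATA box, TATAAA, was in 23.5% and 26.9% (odds ratio 0.836, 0.741 to 0.943, Fisher's exact adjusted p = 0.0454). The CTCF core, AGGTGGCGC, was in 0.603% and 1.35%, that is 17 and 38 peaks (odds ratio 0.444, 0.25 to 0.789, Fisher's exact adjusted p = 0.0476). In windows around all protein-coding start sites the shares of these words were 13.4%, 26.9% and 0.151%. Within 200 bp of the summit, the TATA box alone passed, at 39.6% of just-below and 43.9% of IDR peaks, and within 50 bp the CTCF core did not pass (Fisher's exact adjusted p = 0.178).

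For the other elements the difference from IDR peaks did not pass within 100 bp. The DRE, TATCGATA, was in 2.13% of just-below and 3.01% of IDR peaks (odds ratio 0.699, 0.501 to 0.978; Fisher's exact adjusted p = 0.248). The Motif 1 core, GTCACACT, was in 2.69% and 2.06% (odds ratio 1.32, 0.933 to 1.86), and GAGAGAG in 8.37% and 7.13% (odds ratio 1.19, 0.978 to 1.45). Within 50 bp GAGAGAG passed, at 4.08% of just-below and 2.66% of IDR peaks (odds ratio 1.56, Fisher's exact adjusted p = 0.0327). Over all protein-coding start windows these 3 words stood at 6.45%, 4.82% and 4.69%.

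Against the remaining low-ranked regions 12 of the 23 elements passed (52.2% called), and each was more frequent in just-below peaks. The Motif 1 core had 2.69% against 1.05% (odds ratio 2.60, 2.01 to 3.37), the DRE 2.13% against 1.16% (1.86, 1.40 to 2.46), GAGAGAG 8.37% against 4.74% (1.83, 1.59 to 2.12) and the CTCF core 0.603% against 0.256% (2.36, 1.38 to 4.05). The BEAF-32 core, CGATA, which lies within the DRE, had 29.2% against 23.3%. Just-below peaks were also more often at promoters, so shares were taken among promoter peaks alone. There the Motif 1 core was in 4.22% of just-below, 2.96% of IDR and 2.03% of remaining peaks, the DRE in 3.21%, 4.66% and 2.66%, GAGAGAG in 10.6%, 8.13% and 6.29%, and the TATA box in 21.3%, 27.3% and 20.6%. A match describes the letters in a window and not a bound site.

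**Figure D5:**
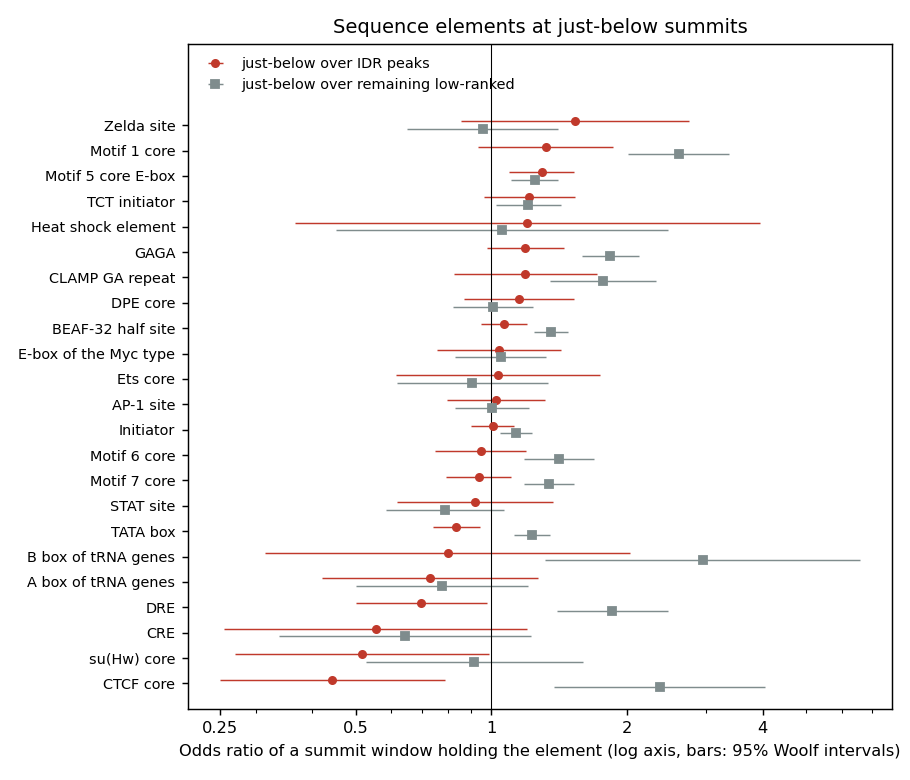
Odds ratio of holding each element within 100 bp of the summit (horizontal log axis; bars are 95% Woolf intervals) for just-below over IDR peaks and for just-below over remaining low-ranked regions. Against IDR peaks most intervals include 1, and against remaining regions the DRE, Motif 1, GAGA and CTCF intervals lie above it.

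Distances to IDR peaks are given as a description, since the rule of choice removed regions that overlap an IDR peak. No reference distance was computed for other regions. The median distance from a just-below summit to the nearest IDR summit was 8136 bp. Within 1000 bp lay 234 just-below summits (8.29%), within 2000 bp 542 (19.2%), and within 5000 bp 1084 (38.4%). The X chromosome held 16.0% (14.6 to 17.3) of just-below and 17.9% (16.6 to 19.4) of IDR peaks, and this difference was not tested.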

How the data were processed

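The members and gene lists were chosen with earlier results of these data known. Per the labels, chromatin of whole embryos was profiled by ChIP-seq in 2 replicates. The authors deposited 4 narrowPeak lists on dm6: 30000 regions for each replicate, 30000 for both together and 2821 IDR peaks. The just-below peaks were the first 2821 of the joint list by signal, ties by chromosome and summit, after regions overlapping an IDR peak by 1 bp were removed. Per the labels' listing, the signal that the authors deposited (column 7) is the peak caller's own value and was used to rank within a list. The deposited −log10 q-value (column 9) is given as a description. The deposited summit offset (column 10) gave summit positions. The aligner, the peak caller, the IDR threshold and the depth are not given in the sources used here.

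Peaks were annotated with Ensembl release 115 (BDGP6 assembly; 17896 genes without transposable elements and pseudogenes). A summit took the first class that applied, in the order promoter, UTR (5′ before 3′), exon (coding first), intron, and otherwise intergenic. Of 313 symbols listed by name, 295 were found. Shares have 95% Wilson intervals, odds ratios 95% Woolf intervals. Fisher's exact tests were two-sided, and p was adjusted by Benjamini-Hochberg within 7 classes, 23 elements or 5 positions, at 0.05. Genes named were those of the 20 highest promoter peaks, up to 4 per list without an IDR peak, the 5 highest other peaks, the tagged gene and the peaks at the limits; names outside this were chosen after their values were seen. One element was dropped and others renamed after a first look. The statistics were tested on simulated data. Alternatives changed the start-site window, number of peaks, replicate distance, sequence window and replicates. Tools were scipy 1.17.1, numpy 2.4.6, pandas 2.3.3 and matplotlib 3.10.9 under Python 3.11.15.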

Additional observations from a re-analysis of the deposited data

How the results depend on the processing

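Of 53 recomputed values, 31 kept their direction and side of the threshold or moved little. With a start-site window of 200 bp the promoter share was 40.3%, above the 37.1% of IDR peaks (p = 0.0139 by Fisher's exact test), genes with a just-below peak numbered 1303 and ribosomal protein genes 4. With 2000 bp there were 13 such ribosomal protein genes, and 2 of 7 classes passed, promoters lower and introns higher than in IDR peaks. The same 2 classes passed with 2 times as many peaks and with peaks of both replicate lists. With the upper 50% of the peaks the promoter share was 61.8% (Fisher's exact p = 0.788), genes numbered 1236, ribosomal protein genes 4, and 88.4% were in both lists. With 2 times as many peaks, genes numbered 3719, ribosomal protein genes 16, and 78.6% were in both lists. With summits within 50 bp and 250 bp the share in both lists was 61.4% and 97.6%. AAGCAGT was in 2.23% within 50 bp and 6.17% within 200 bp, and 1 element passed within 200 bp. Taking the ranks from 1 replicate alone gave promoter shares of 60.1% to 60.5% (Fisher's exact p = 0.0903 to 0.18, against 0.0463) and 7 to 13 ribosomal protein genes, the 13 without replicate 3. No paired analysis was possible because there was 1 group. Depth was unknown, 2 replicates give no test between embryos, and a list of fixed length holds background at its lower ranks.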

Other observations

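Of 1137 just-below peaks over 1000 bp from any start site, some lay in the bodies of 593 protein-coding genes, and 65 genes held 3 or more. The genes named here were chosen after their values were seen. Eip75B, an ecdysone-induced nuclear receptor gene of 113744 bp, held 8 just-below and 5 IDR peaks of this kind. The adhesion gene kirre held 7 and 5, over 394149 bp, and tai, a steroid receptor coactivator gene, held 7 and 0. The gene bun held 6 and 6, cic, a repressor gene of growth factor signalling, 5 and 3, pnt, an Ets factor gene, 5 and 2, and sbb 5 and 9. Among the shorter genes with 5 just-below peaks, CG3764 held 0 IDR peaks within 17849 bp and elB 1 within 18922 bp. No share over all genes or by length was computed and no test was made.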
